A study of Homo sapiens with 6 samples.

Results

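CCL3, CCL4 and their copies CCL3L1, CCL3L3, CCL4L1 and CCL4L2 are a set of CC chemokine genes that are read here together, because the copies are near-identical in sequence. The members were chosen by gene symbol, with their large log2 changes after ODN2006 in these same arrays already known. Of the 6 genes, 5 had a probe on the array, out of 20041 genes with a probe symbol, and these 5 were measured by 8 probes. CCL3L1 had 3 probes, CCL4L1 had a pair, and CCL3, CCL3L3 and CCL4 had 1 each, while no probe carried the symbol CCL4L2. The values of ODN2006-stimulated against untreated cells that led to this choice are given as a description, with no test.

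The cells were GEN2.2, a leukaemic human line of the plasmacytoid dendritic cell type, which detects foreign nucleic acids in endosomes and answers with interferons and chemokines. Of 6 Illumina HumanHT-12 v4 bead arrays, 3 were hybridised with RNA of cells given 1 µM ODN2006 for 2 h, and 3 with RNA of untreated cells. ODN2006 is a synthetic CpG oligonucleotide that is a ligand of Toll-like receptor 9 (TLR9), and no control oligonucleotide was part of the comparison. Both groups were grown in the same serum-supplemented medium, the labels name no transgene or deletion in either, and the model is 1 leukaemic line. Whether the replicates came from separate cultures is not given by the labels, so the p-values cover the spread between these samples alone, and that spread may be technical.

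CCL3 encodes macrophage inflammatory protein 1-alpha and CCL4 encodes macrophage inflammatory protein 1-beta. Both are secreted chemokines that attract monocytes, T cells and natural killer cells. CCL3 and its copies bind the receptor CCR1. The copies arose by duplication of a segment that carries a CCL3-type and a CCL4-type gene side by side, and the number of such segments varies between people. CCL3L1 and CCL3L3 encode the same protein. Activated myeloid and lymphoid cells make these chemokines within hours, and NF-kB and C/EBP factors are known regulators of the CCL3 promoter.

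The promoters of CCL3 and CCL3L3 are shown because they make plain how alike the copies are outside the transcript. Each sequence is the 250 bases before the start of the gene in RefSeq on GRCh38.p14, read on the minus strand, at chr17:36090144-36090393 for CCL3 and at chr17:36196759-36197008 for CCL3L3. Only these 2 members matched the promoter table. Capitals mark the TATA box letters TATAAA, the C/EBP-type letters TTGCNNAA and the letters GGGAAA, each searched on both strands.
CCL3: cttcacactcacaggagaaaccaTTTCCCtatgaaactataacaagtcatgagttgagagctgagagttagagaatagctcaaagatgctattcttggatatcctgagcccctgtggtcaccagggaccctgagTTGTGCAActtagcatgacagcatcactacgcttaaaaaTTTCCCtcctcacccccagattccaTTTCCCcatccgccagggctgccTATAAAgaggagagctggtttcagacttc
CCL3L3: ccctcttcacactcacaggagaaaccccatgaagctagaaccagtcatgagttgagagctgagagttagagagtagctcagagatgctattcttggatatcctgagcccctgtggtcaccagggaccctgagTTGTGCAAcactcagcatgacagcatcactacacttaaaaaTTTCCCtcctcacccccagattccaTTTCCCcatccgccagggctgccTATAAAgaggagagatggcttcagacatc
In a global alignment of 256 columns, 234 were identical (91.4%), 10 were mismatches and 12 were gaps. The CCL3 promoter shared at most 57.7% of columns with those of CCL1, CCL7, CCL8, CCL13, CCL15, CCL18 and CCL23, which are other CC chemokine genes of the same chromosome.

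TATAAA began 29 bases before the start in both promoters, and 10.7% of the 35116 promoter windows of the table hold it. TTGCNNAA began 116 bases before the start in CCL3 and 118 in CCL3L3, and 9.05% of windows hold it. GGGAAA, which was chosen after the sequences were seen, had 3 matches in CCL3, at 227, 77 and 52 bases before the start, and 2 in CCL3L3, at 77 and 52. At least 1 such match is found in 23.3% of windows and 2 or more in 3.37%. The match at 227 bases was present in the CCL3 window alone. Neither promoter held the AP-1 letters TGANTCA (6.57% of windows), the interferon-stimulated response element (3.02%) or the full NF-kB consensus (5.21%), the last 2 given by name. None of the matches overlapped another. A match is a description of letters and not evidence of binding.

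Between 13454 and 15447 of 47218 probes were detected per array at a detection p under 0.01, and the median raw intensity lay between 107 and 121. Correlations over the tested probes, once all arrays were normalized together, ran from 0.983 to 0.991 within a group and from 0.960 to 0.974 between the groups. In the fit with limma over 13816 probes, 297 of 8706 genes were higher after ODN2006 (3.41%) and 158 lower (1.81%) at a Benjamini-Hochberg adjusted p under 0.05. With the replicate number as a block 405 were higher and 358 lower. The median log2 change over all tested genes was -0.05. Markers of plasmacytoid dendritic cells were present, with 13 of 15 tested and none passing the test, while LILRA4 and PTCRA were not tested. The tested ones ran from 6.87 log2 (CLEC4C) to 12.45 (IRF8) in untreated cells. Some monocyte and conventional dendritic cell markers were present too. In untreated cells CD1C averaged 12.45 log2, CSF1R 11.13, LYZ 10.86 and CD14 10.60, but FCGR3A 6.81, ITGAX 6.24 and S100A9 5.50. Bright markers were thus found in both lists, which do not single out a cell type. None of the 8 tested of 13 monocyte and conventional dendritic cell markers, of the 2 tested of 11 T and NK cell markers or of the 2 tested of 6 B cell markers passed the test either. Of these last 3 lists, 5, 8 and 2 genes were detected on no array.

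Of the 8 member probes, 6 were detected on all 3 ODN2006 arrays and on no untreated array, a pattern shown by 0.205% of all probes on the array. These 6 stand for CCL3, CCL3L1, CCL3L3 and CCL4L1. They share targets and were chosen for this contrast, so nothing is read from their share. The other probes, 1 of CCL4 and 1 of CCL4L1, were detected on no array.

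The CCL3 probe (ILMN_1671509) read 8621, 8533 and 14204 units of raw intensity on the ODN2006 arrays, against 132, 123 and 112 on the untreated arrays. The groups were far apart, with the third ODN2006 array the highest. Relative to the median probe of its array, CCL3 stood at 71.2, 72.9 and 126 times that median after ODN2006, and at 1.09, 1.10 and 1.04 times in untreated cells. Untreated cells thus read CCL3 at the level of a typical probe, most of which are undetected. On the normalized log2 scale CCL3 averaged 13.25 ± 0.33 in ODN2006-treated cells and 5.01 ± 0.13 in untreated cells (SD, n = 3 each). The difference was 8.24 ± 0.18 log2 (SE).

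Because no untreated array detected CCL3, its fold is given as a bound, the ODN2006 mean against the higher of the probe's own level and the lowest detected signal on each untreated array. By this bound CCL3 was at least 259-fold higher with the offset of 16 that was added to all signals, and at least 137-fold higher with an offset of 50, so the bounds hold for their offset. The ratio of the raw means, which keeps the background signal in both groups, was 85.6. A bulk measurement like this cannot tell fewer cells that make a transcript apart from less transcript per cell.

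The CCL3L3 probe (ILMN_2105573) measured another CCL3-type copy. It read 14387, 13342 and 16823 raw units on the ODN2006 arrays, against 131, 125 and 108 on the untreated arrays. Its groups did not overlap, and its ODN2006 arrays lay closer to each other than those of any other detected member probe, with a coefficient of variation of raw intensity of 12.03% against 33.7% at the widest probe. CCL3L3 averaged 13.84 ± 0.16 log2 in ODN2006-treated cells and 4.98 ± 0.25 in untreated cells (SD, n = 3 each), a difference of 8.86 ± 0.16 (SE) and a bound of at least 390-fold, or 205-fold with the offset of 50. The highest probe of any array read 23578 raw units, so CCL3L3 came near the top of the scale, where bead signals can be compressed.

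**Figure D1:**
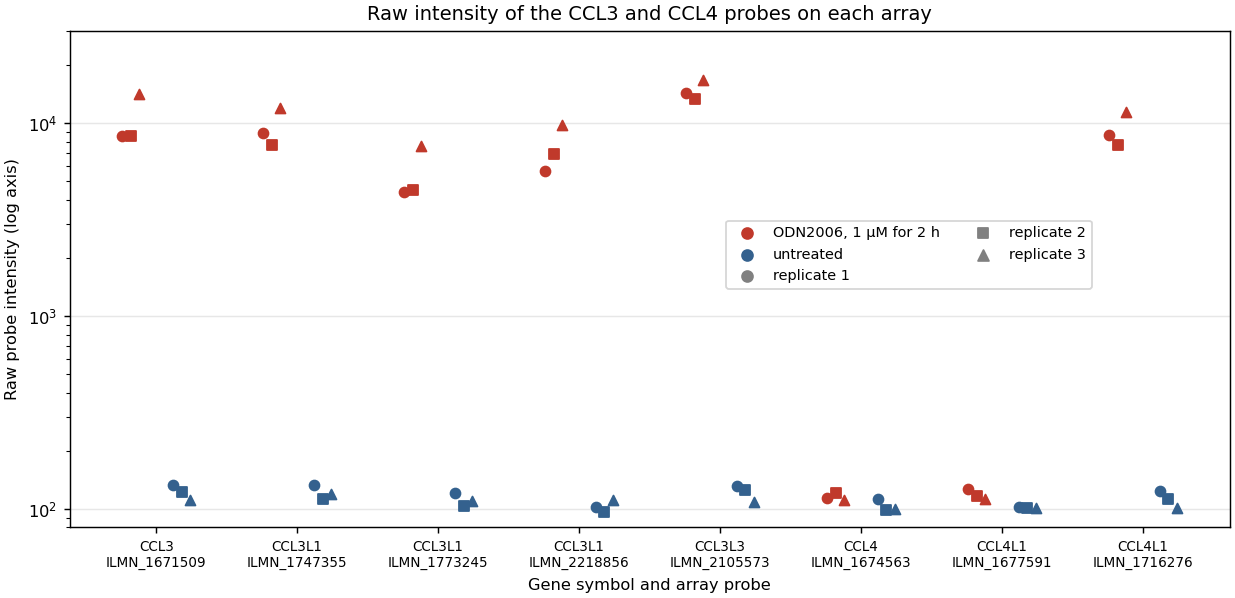
Raw probe intensity (log axis) of the 8 probes, with 3 ODN2006 arrays (red, left of each pair) and 3 untreated arrays (blue, right) as single points, and the shape giving the replicate number. The 6 detected probes lie between 4381 and 16823 after ODN2006 and between 95.8 and 133 in untreated cells, while the CCL4 probe and 1 CCL4L1 probe stay between 98.5 and 127 in both groups.

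CCL3L1 was read by 3 probes, which allow the same transcript family to be compared between probes. Probe ILMN_1747355 read 8929, 7701 and 11964 raw units on the ODN2006 arrays, against 133, 113 and 119 on the untreated arrays. Probe ILMN_1773245 read 4381, 4476 and 7632 on the ODN2006 arrays, against 121, 104 and 109 on the untreated arrays. Probe ILMN_2218856 read 5672, 6928 and 9745 on the ODN2006 arrays, against 102, 95.8 and 111 on the untreated arrays. All 3 separated the groups without overlap, as did 8.37% of tested probes with ODN2006 higher, and all 3 were highest on the third ODN2006 array.

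Their ODN2006 means were 13.14 ± 0.23, 12.30 ± 0.39 and 12.77 ± 0.33 log2, against untreated means of 4.99 ± 0.24, 4.63 ± 0.16 and 4.49 ± 0.29 (SD, n = 3 each). The changes were 8.15 ± 0.17, 7.67 ± 0.19 and 8.27 ± 0.20 log2 (SE). The untreated side of each change is below detection, so the changes are not ranked between probes. Levels of different probes depend on how well each binds and give no order of transcript amounts. The bounds were at least 240-fold, 134-fold and 185-fold in the same probe order, and 126-fold, 70.7-fold and 97.6-fold with the offset of 50.

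The CCL4L1 probe ILMN_1716276 read 8642, 7675 and 11399 raw units on the ODN2006 arrays, against 123, 112 and 100 on the untreated arrays. Its groups did not overlap. It averaged 13.10 ± 0.20 log2 in ODN2006-treated cells and 4.63 ± 0.15 in untreated cells (SD, n = 3 each), a difference of 8.47 ± 0.16 (SE) and a bound of at least 233-fold, or 123-fold with the offset of 50. A CCL3-type and a CCL4-type signal were thus both detected after ODN2006 and undetected in untreated cells.

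The second CCL4L1 probe, ILMN_1677591, showed no difference of that size and was detected on no array. It read 127, 117 and 112 raw units on the ODN2006 arrays, against 102, 101 and 101 on the untreated arrays, with detection p between 0.0779 and 0.214 after ODN2006. The CCL4 probe, ILMN_1674563, read 114, 121 and 111 on the ODN2006 arrays, against 112, 98.5 and 99.7 on the untreated arrays. Its detection p was 0.431, 0.0753 and 0.270 after ODN2006 and 0.475, 0.831 and 0.538 in untreated cells. Both probes were thus not above background in either group, and no fold is given for them. Their log2 differences were 0.33 ± 0.10 and 0.22 ± 0.11 (SE), measured below the detection limit. On the log2 scale the groups of neither probe overlapped. The detected probes thus stood apart by detection and by the size of the change.

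For CCL4L1 the probes therefore disagreed, with 1 detected on all 3 ODN2006 arrays and 1 at background. The only CCL4 probe was at background in both groups while a CCL4L1 probe was far above it after ODN2006. The symbol given to a probe does not settle which copy it binds, since the probe sequences were not used here and the copies are near-identical. No statement about CCL4 as against CCL4L1 or CCL4L2, or about CCL3 as against CCL3L1 or CCL3L3, rests on these levels.

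**Figure D2:**
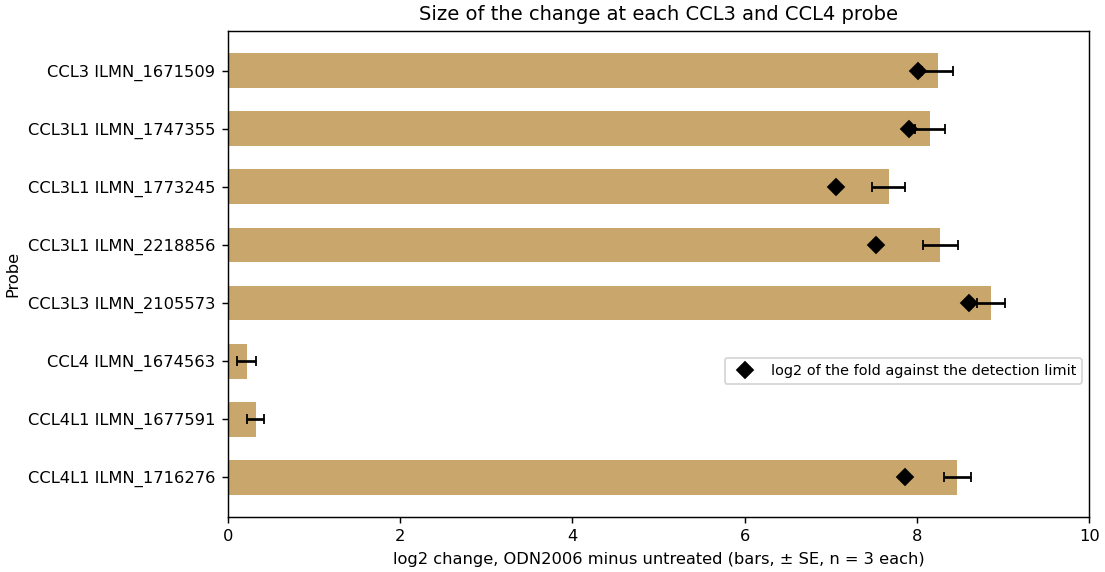
log2 change of each probe, ODN2006 minus untreated, as bars from 0 with the SE of the fit (n = 3 arrays each), and as diamonds the log2 of the fold against the detection limit. The 6 detected probes lie between 7.67 and 8.86, and the CCL4 probe and CCL4L1 probe ILMN_1677591 at 0.22 and 0.33.

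At a looser detection p of 0.05, 5 of the 24 untreated values of the 8 probes passed (20.8%), against 37.7% of the untreated values of all probes. The CCL3 probe passed on 2 of 3 untreated arrays, with p of 0.0403, 0.0156 and 0.0610. CCL3L1 probe ILMN_1747355 passed on 2 of 3, with p of 0.0273, 0.142 and 0.0104, and the CCL3L3 probe on 1 of 3, with p of 0.0519, 0.0104 and 0.125. The other 5 probes passed on none. At a p of 0.01 none of the 8 passed, so a low basal level was not detectable at this sensitivity.

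The third ODN2006 array was the highest of its group at all 6 detected probes. Over all tested probes 30.4% were highest there, and 27.8% of those with an ODN2006 mean over 12 log2. The raw intensity of the CCL3 probe on that array was 14204, against 8621 and 8533 on the other ODN2006 arrays. The probes share transcripts and arrays, so they are not separate observations of this. Nor is it particular to the members. On the log2 scale CXCL8, IL1B and CD69 were highest on another ODN2006 array. IFNB1, PLAU, CCL1, CCL2, CCL5 and CCL14 were, like the members, highest on the third. Without that array the bounds ranged from at least 111-fold to 359-fold, against 134-fold to 390-fold with it.

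Within the whole fit the 6 detected probes filled 6 of the 8 highest changes of the 13816 tested probes. No other named gene reached the lowest of them, at 7.67 ± 0.19 log2 (SE), but IFNB1 at 7.64 ± 0.16 lay within that error. The remaining 2 of the 8 were probes without a gene symbol. The members were chosen by this contrast and entered the fit through the ODN2006 arrays alone, so nothing is read from their place.

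**Figure D3:**
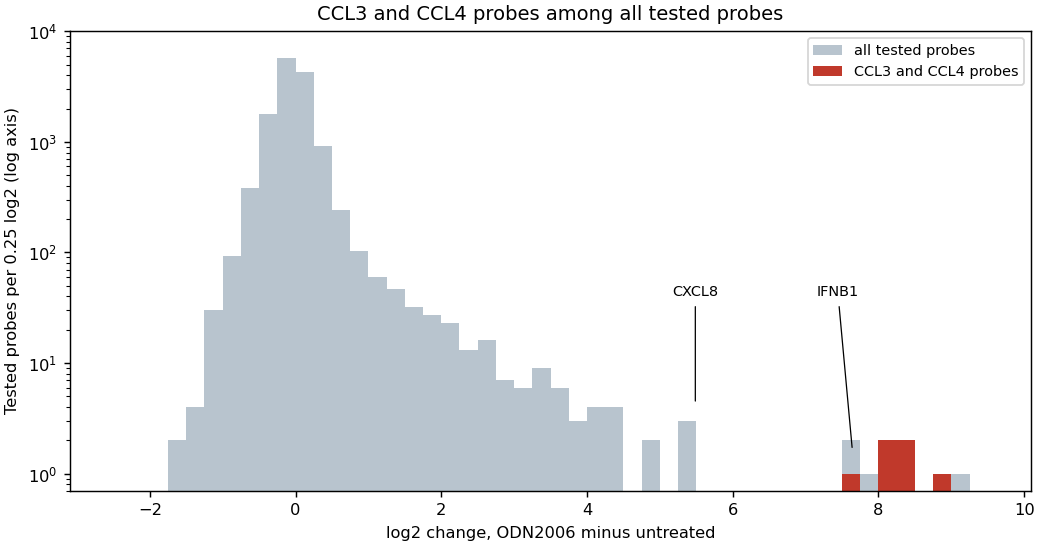
Number of tested probes (log axis) per 0.25 log2 bin of the change, ODN2006 minus untreated, for all 13816 tested probes (grey) with the 6 tested CCL3 and CCL4 probes in red. Most probes lie around 0, and the CCL3 and CCL4 probes lie between 7.67 and 8.86, with IFNB1 at 7.64 and CXCL8 at 5.49 marked.

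The gene with the profile nearest to the members' was IFNB1, which encodes interferon beta. Likeness was the root mean square distance, over the 6 arrays, between values centred on their own mean, and for the member probes themselves it ran from 0.10 to 0.34. IFNB1 lay at 0.32, with a change of 7.64 ± 0.16 log2 (SE). Detected on no untreated array, IFNB1 entered the test only through the ODN2006 arrays. It read 3761, 3939 and 5822 raw units on the ODN2006 arrays, against 107, 99.7 and 95.3 on the untreated arrays, and its groups did not overlap. It averaged 12.02 ± 0.26 log2 in ODN2006-treated cells and 4.37 ± 0.03 in untreated cells (SD, n = 3 each).

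The next genes lay farther off. CXCL8, a neutrophil chemokine, lay at 1.41, and PLAU, the urokinase protease, at 1.44. IL1B, the cytokine interleukin-1 beta, lay at 1.47, and CD69, an early activation antigen, at 1.68. These 4 differed from the CCL3 and CCL4 copies in being detected on all 3 untreated arrays, with untreated means of 6.89 ± 0.17, 7.10 ± 0.05, 6.11 ± 0.32 and 7.72 ± 0.13 log2. Their changes were 5.49 ± 0.19, 5.42 ± 0.14, 5.37 ± 0.17 and 4.92 ± 0.15 log2 (SE). Likeness was computed on the same arrays that chose the members and is a description. It mostly follows the size of the log2 change, so it largely repeats the values behind that choice.

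None of the 7 tested receptor and proximal signalling genes passed the test, while 3.41% of all tested genes rose and 1.81% fell. At these shares 7 genes could well hold no call, so nothing is read from this count. CCR1, a receptor of the CCL3-type chemokines, averaged 6.12 ± 0.29 log2 in ODN2006-treated cells and 6.30 ± 0.14 in untreated cells (SD, n = 3 each). Its difference of -0.18 ± 0.17 (SE) did not pass, with a limma adjusted p of 0.742. Of 13 genes of this list 7 were tested, with a median log2 change of -0.04 against -0.05 over all tested genes. GNB1, a G protein beta subunit, had a difference of 0.08 ± 0.17 (limma adjusted p = 0.925), and GRK2, a receptor kinase, one of -0.35 ± 0.14 (adjusted p = 0.24).

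Secreted CCL3 and CCL4 are held on sulphated sugar chains of proteoglycans, and of 14 genes for such carriers and their processing 9 were tested. Of these, 1 rose and none fell, against 3.41% and 1.81% of all tested genes, with a median of -0.03 log2. SDC4, the membrane proteoglycan syndecan-4, averaged 9.03 ± 0.36 log2 in ODN2006-treated cells and 6.82 ± 0.15 in untreated cells (SD, n = 3 each). It rose by 2.203 ± 0.19 log2 (SE, limma adjusted p = 9.96e-06), and by 1.58 without background correction. CD44, a hyaluronan receptor named after its values were seen, had probes that disagreed. Its brightest probe differed by -0.03 ± 0.16 log2 (limma adjusted p = 0.972), and another by 2.24 ± 0.17 (adjusted p = 3.77e-06).

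Among 25 genes for transcription factors, most of the NF-kB, AP-1, C/EBP and IRF families, 23 were tested, 12 rose and 2 fell. The list also held SPI1, BCL6 and ETV3, which belong to none of these families. Over all tested genes 3.41% rose and 1.81% fell. The median log2 change of the list was 0.64, against -0.05 over all tested genes. ATF3, a stress-induced partner of the AP-1 factors, rose by 3.81 ± 0.15 log2 (SE, limma adjusted p = 8.96e-09), with means of 10.49 ± 0.19 in ODN2006-treated cells and 6.68 ± 0.07 in untreated cells (SD, n = 3 each). FOSB rose by 2.45 ± 0.20 (adjusted p = 8.2e-06), JUNB by 2.22 ± 0.18 (adjusted p = 5.87e-06) and JUN by 2.09 ± 0.19 (adjusted p = 1.52e-05), all 3 from limma and all subunits of AP-1. The other genes of this list that rose were NFKB1, NFKB2, RELB, REL, IRF1, IRF4, BCL6 and ETV3. REL was detected on all 3 ODN2006 arrays and on 1 untreated array, so it entered the test through the ODN2006 arrays, and 11 genes rose where detection on all 6 arrays was required. Without background correction the changes of ATF3 and FOSB were 2.98 and 1.38 log2, and both passed.

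The genes of this list that fell were CEBPA, at -0.69 ± 0.15 log2 (SE, limma adjusted p = 0.0194), and CEBPB, at -0.57 ± 0.14 (adjusted p = 0.0346). Both encode C/EBP factors and were named after their values were seen. CEBPB lost its call without any 1 of the 6 arrays, with adjusted p between 0.0608 and 0.148. For CEBPA the call was lost when ODN2006 replicate 1 or 3 or untreated replicate 2 or 3 was left out (adjusted p from 0.0659 to 0.087), and it stood when ODN2006 replicate 2 or untreated replicate 1 was.

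CCL3 and CCL4 transcripts carry AU-rich elements, which mark short-lived mRNAs for decay. Of 12 genes for proteins that act on such mRNAs 11 were tested, 3 rose and none fell, against 3.41% and 1.81% of all tested genes. The median was 0.08 log2, against -0.05 over all tested genes. ZC3H12A, an endonuclease of inflammatory mRNAs, rose by 3.02 ± 0.18 log2 (SE, limma adjusted p = 4.46e-07), and by 1.93 without background correction. ZFP36, or tristetraprolin, which binds AU-rich elements and promotes decay, rose by 1.81 ± 0.15 (adjusted p = 7.24e-06), and its relative ZFP36L1 by 1.04 ± 0.16 (adjusted p = 0.00167), both from limma. ZFP36L2, named after its values were seen, differed by -0.60 ± 0.16 (limma adjusted p = 0.0557) and passed with the replicate number as a block (adjusted p = 0.0176). It also passed when ODN2006 replicate 1 was left out (limma adjusted p = 0.0276).

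**Figure D4:**
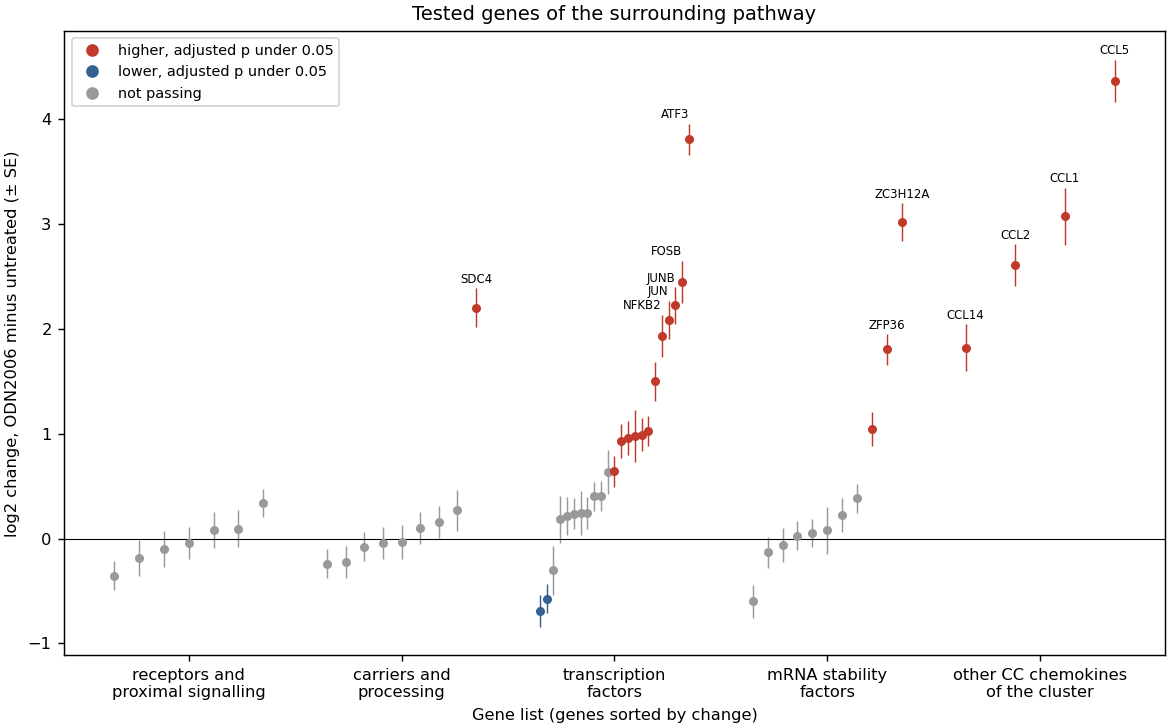
log2 change, ODN2006 minus untreated, of each tested gene in 5 lists around the CCL3 and CCL4 copies, as points with the SE of the fit, sorted within a list. None of the 7 tested receptor and signalling genes is coloured, while 12 of 23 transcription factor genes are coloured as higher and 2 as lower.

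CCL3 and CCL4 lie in a cluster of CC chemokine genes on chromosome 17. Of 12 other CC chemokine genes of that cluster 11 had a probe and 4 were tested. These 4 rose and none fell, against 3.41% and 1.81% of all tested genes. Where detection on all 6 arrays was required, 2 rose. CCL5, a chemokine for T cells and monocytes, rose by 4.37 ± 0.20 log2 (SE, limma adjusted p = 3.59e-08), with means of 11.10 ± 0.30 in ODN2006-treated cells and 6.73 ± 0.33 in untreated cells (SD, n = 3 each). Without background correction the change of CCL5 was 3.52 log2. CCL2, a monocyte chemokine, rose by 2.61 ± 0.20 (limma adjusted p = 3.77e-06). CCL1, a T cell chemokine, was at least 5.36-fold higher (limma adjusted p = 1.51e-05), and CCL14 at least 2.11-fold higher (adjusted p = 0.00027). With the offset of 50 these bounds were 3.32-fold and 1.597-fold, and without background correction the log2 changes were 1.43 and 0.69. CCL1 and CCL14 were detected on no untreated array and entered the test only through the ODN2006 arrays, so the count of 4 is no share of the cluster. CCL14 had 2 probes, of which 1 did not meet the detection filter in either group. The tested CCL14 probe read 162, 158 and 215 raw units on the ODN2006 arrays, against 115, 102 and 102 on the untreated arrays. Of the 11 genes with a probe, 6 were detected on no array.

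Most tested genes around the CCL3 and CCL4 copies did not pass the test. Of the 20 protein-coding genes on each side in the gene order of GRCh38.p14, 33 of 40 had a probe and 15 were tested. Against 3.41% and 1.81% of all tested genes, 2 rose and none fell, with a median of -0.10 log2. The 2 that rose were CCL5, the eighth gene before CCL3, and CCL14, the fourth, the latter by its only tested probe. Between the CCL4 gene and CCL3L3 lies TBC1D3B, which differed by 0.07 log2 (limma adjusted p = 0.919) and has near-identical relatives. CCL3L1 and CCL4L1 are not placed within the chromosome 17 order of that table and are not part of this view.

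**Figure D5:**
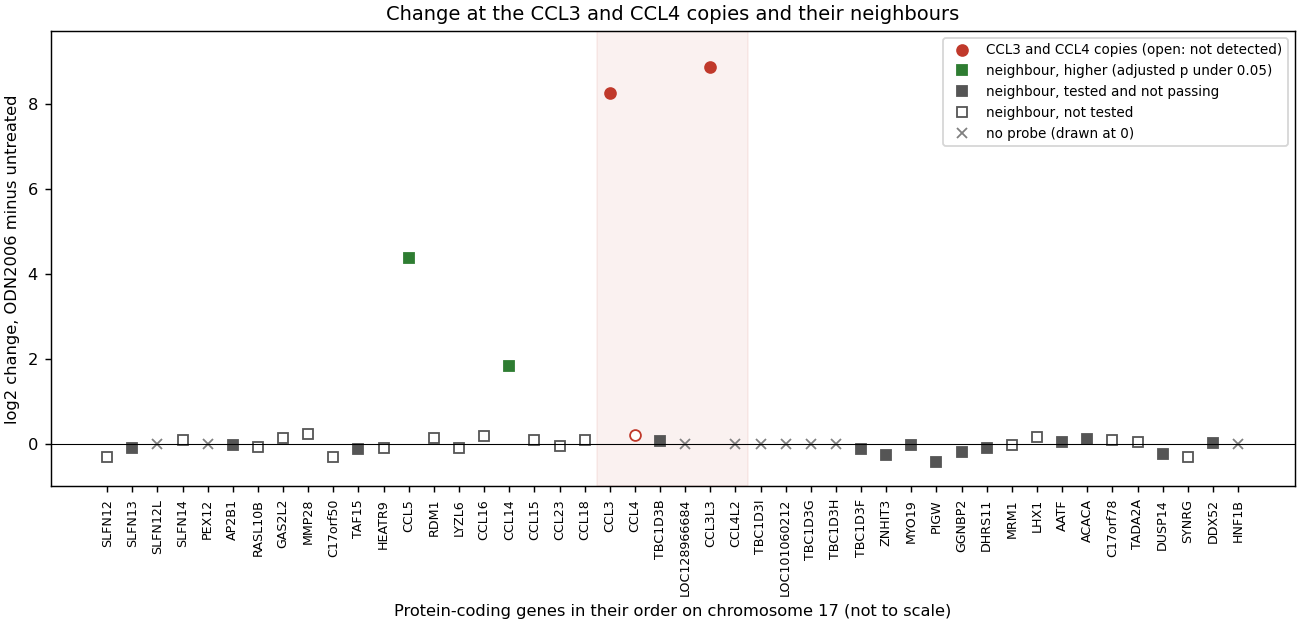
log2 change, ODN2006 minus untreated, of the protein-coding genes around the CCL3 and CCL4 copies in their order on chromosome 17, not to scale, with the members in the shaded band. CCL3 at 8.24, CCL3L3 at 8.86, CCL5 at 4.37 and CCL14 at 1.82 stand above the line, genes without a probe are crosses drawn at 0, and the open CCL4 circle is at 0.22.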

How the data were processed

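The authors deposited linear probe intensity, named non-normalized per the file headers. A detection p-value for every probe and array was deposited with it. A further deposited table held log2 values, for which the submitters' processing notes name limma without a version. Its array medians were 4.59 in the ODN2006 group and 4.67 in the untreated group, so separate normalization of the groups is possible, and background step and offset are unknown. It served as an alternative.

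The intensities were background-corrected by normexp, with negative controls inferred from the detection p, given an offset of 16 and then quantile-normalized over all 6 arrays (limma 3.58.1, R 4.3.3). Probes detected (p under 0.01) on every array of either group were tested with lmFit and eBayes, two-sided, with Benjamini-Hochberg adjustment over 13816 probes. A gene was read from its brightest tested probe, and SEs of undetected probes come from a fit to all probes. Of the probes, 30107 had 1 symbol, 8 several and 17103 none here, and 30068 took their current name by gene ID from RefSeq (GRCh38.p14). Promoters were aligned with Biopython 1.88.

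Named genes were every member probe, CCR1, the genes called in each list (the 4 largest where over 4 were called, the 2 brightest tested where none was), and the 5 tested genes nearest in profile. An item the rule also named is not reported here. Members and lists were chosen with earlier results of these data known.

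Replicate numbers come from the titles. Deviations of same-numbered arrays from their group means correlated at 0.413, 0.347 and 0.461, so the numbers were taken to pair the samples. Those of other pairs correlated at most at -0.11. Centring on the group means pushes these values negative once the same-numbered ones are positive, so they are no separate support. The reported fit has no block, so its SEs and adjusted p-values leave this pairing out. With the block 405 genes were higher and 358 lower, against 297 and 158 without it. Alternatives were the block, 2 other background settings, median scaling, the deposited values, other detection filters, a trended robust prior, the mean of a gene's probes and leaving out each array. The number of arrays limits the precision. Slide and scan date were not used here.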

Additional observations from a re-analysis of the deposited data

Results flagged for a closer look

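Changes at least as large as the smallest among the detected CCL3 and CCL4 probes appeared at 2 probes without a gene symbol in the annotation used here, which entered no comparison by gene. Probe ILMN_3235832 had the largest change of all tested probes, 9.11 ± 0.15 log2 (SE). It read 12094, 10423 and 15292 raw units on the ODN2006 arrays, against 112, 106 and 97.7 on the untreated arrays. Probe ILMN_2100209 changed by 7.76 ± 0.19 log2 and read 5279, 5953 and 9833 on the ODN2006 arrays, against 129, 115 and 113 on the untreated arrays. Neither probe was detected on an untreated array at a detection p under 0.01, and both were highest on the third ODN2006 array. Their centred profiles lay 0.42 and 0.28 from the mean CCL3 and CCL4 profile, and the next probe without a symbol at 2.08. Which transcripts they bind was not tested.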

How the results depend on the processing

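The log2 size of the rise depends on the background setting. Without background correction the changes of CCL3, of the 3 CCL3L1 probes in the order given, of CCL3L3 and of CCL4L1 probe ILMN_1716276 were 6.31, 6.21, 5.51, 6.07, 6.91 and 6.30, and with an offset of 50 they were 7.21, 7.10, 6.43, 6.95, 7.81 and 7.23. With that offset the bounds were at least 70.7-fold to 205-fold. With the deposited log2 values the undetected CCL4 probe differed by 0.05. Leaving out each array in turn, all 48 member values moved by less than 1 SD. With 3 arrays a group this was nearly fixed in advance, so nothing is read from it. The count of genes lower, 158, was 104 with median scaling, 59 without a filter on dim probes, 358 with the replicate number as a block and 51 (without untreated replicate 2) to 115 (without ODN2006 replicate 2) when each array was left out. Genes lower in the transcription factor list numbered 1 with median scaling, 0 without the filter and 0 to 1 without each array. In the mRNA stability list 1 was lower with median scaling, an offset of 50, a trended robust prior, the replicate block and the mean of probes, and 0 to 1 without each array. Where detection on all 6 arrays was required, 2 other CC chemokine genes of the cluster and 1 neighbour were higher. With the replicate block ZFP36L2 passed and the call of the other named list genes given with an adjusted p did not change. With the mean of probes 2 carriers were higher. CD44 then differed by 0.84, and its small difference also turned to 0.0357 with median scaling and 0.0184 with the deposited values. Without each array CD44 ran from -0.11 to 0.13, above 0 without untreated replicate 3 (0.01) or ODN2006 replicate 1, and GNB1 from -0.0747, without untreated replicate 3, to 0.23. The cause of these shifts was not tested. The detection limit bounds every fold given for the members.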
